A study of Mus musculus with 19 samples.

Results

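The 35 genes described here mark Kupffer cells, the resident macrophages of the liver, and other leukocytes, and were followed in a culture time course of hepatic stellate cells (HSCs). They were chosen by symbol from the 55487 Ensembl gene rows of the deposited count matrix, and all 35 had a row. RNASeq was performed on HSCs of healthy, untreated male Balb/c mice aged 23 to 24 weeks, isolated by sorting on ultraviolet positivity, the autofluorescence of their vitamin A droplets. Cells were either taken without culture (0 h, 2 samples) or grown on collagen-coated plastic in Dulbecco's modified Eagle's medium with 10% serum for 3, 6, 12, 18 or 96 h (3 samples each) or 24 h (2 samples). Medium was replaced after 3 h and after 24 h. The labels number the replicates from 1 to 3 and carry 2 dated isolation tags, of which replicates 1 and 3 share 1 and replicate 2 has the other. Every sample combined 2 technical repeats. All 19 samples share strain, sex and the sort. A contrast with 0 h holds plating, medium and collagen besides time, and these cannot be told apart, while the cultured samples shared them. The sort selects on light and not on a surface protein, so that no step described removed leukocytes by a marker of their own.

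Kupffer cells sit in the liver sinusoids next to HSCs, where they clear particles, aged red blood cells and complement-coated microbes. They carry a set of genes that few other cells use, such as those of the lectin Clec4f, the secreted scavenger protein Cd5l and the complement receptor Vsig4, and together with other macrophages they make the complement component C1q. Further genes of the set are shared among myeloid cells or among all leukocytes, for example Csf1r, the receptor for the macrophage growth factors Csf1 and Il34, and Ptprc, the leukocyte surface phosphatase CD45. In bulk RNA, fewer cells of a type and less RNA per cell cannot be told apart.

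Total counts per sample lay between 2073171 and 7690892, and the least deep sample was replicate 3 at 0 h. Levels are given as CPM, counts relative to the total of a library, scaled by the trimmed mean of M values (TMM). The libraries were made from the 3′ ends of transcripts, so that CPM does not scale with transcript length. A floor of 3 counts, the highest number that a count of 0 allows, corresponded to 0.385 to 1.5 of these scaled CPM, depending on the library, and covers counting error only. The mitochondrial share of counts was 12.67 and 13.98% at 0 h and 3.6 to 8.1% in culture, and its part in the results was not tested. The 7 genes of a list typical of HSCs summed to 24051.3 and 27460.3 CPM in the 2 samples at 0 h, or 2.31 and 2.46% of all counts, against 0.103 and 0.139% for the 35 Kupffer cell and leukocyte genes. Counts of these genes came in clumps. Of 665 values (35 genes in 19 samples), 426 were 0, 22 lay between 1 and 5, and 211 were 10 or more. In 13 combinations of a gene with 0 h or 3 h, 1 sample held no count while another held 50 or more. Single values at 0 are therefore weak evidence of absence in these libraries. Replicate 2 at 6 h had counts in 15189 genes, the most of any sample (11060 to 14467 in the others), and it was also the 6 h sample with the most of the 35 genes.

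Promoter windows of 300 bases were at hand in RefSeq for 26 of the 35 genes. The first 250 bases of each, which end at the start site, were searched on both strands for the motif GAGGAA, for the motif GGAAGT and for GAGGAAGT, which contains both, letters that occur in binding sequences of PU.1, the myeloid transcription factor encoded by Spi1. The first motif was found in 15 of 31 member windows (48.4%), against 23.3% of all 32851 windows, the second in 13 (41.9% against 19.7%) and the third in 1, that of C1qc (3.23% against 2.44%). These shares are a description of the letters, not of binding, and Spi1 itself had no count in any sample. Of the Kupffer cell identity and C1q genes that fell in culture, 3 are shown whose windows cover no annotated exon. They lie at chr3:87357631-87357880 (plus strand, upstream of Cd5l), chrX:96293439-96293688 (minus strand, upstream of Vsig4) and chr4:136886201-136886450 (minus strand, upstream of C1qb) of GRCm38.p6. Capitals mark GAGGAA or, read on the other strand, its reverse complement, once upstream of Cd5l and of C1qb and 2 times upstream of Vsig4.
Cd5l: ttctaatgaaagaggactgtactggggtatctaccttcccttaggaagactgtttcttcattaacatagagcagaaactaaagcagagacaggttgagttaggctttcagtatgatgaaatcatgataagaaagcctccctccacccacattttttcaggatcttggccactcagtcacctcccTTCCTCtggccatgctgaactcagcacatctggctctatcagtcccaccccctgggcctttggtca
Vsig4: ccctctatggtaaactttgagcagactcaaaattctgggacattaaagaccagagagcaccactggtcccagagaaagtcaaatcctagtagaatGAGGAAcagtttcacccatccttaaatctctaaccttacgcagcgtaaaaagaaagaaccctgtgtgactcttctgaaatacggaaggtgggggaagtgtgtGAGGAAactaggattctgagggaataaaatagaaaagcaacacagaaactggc
C1qb: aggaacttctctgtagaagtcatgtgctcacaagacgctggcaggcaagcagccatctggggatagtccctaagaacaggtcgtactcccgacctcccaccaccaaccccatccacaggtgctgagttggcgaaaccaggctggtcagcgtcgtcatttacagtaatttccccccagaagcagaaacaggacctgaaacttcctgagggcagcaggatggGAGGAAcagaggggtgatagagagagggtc

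Of the 35 genes, 31 had counts in at least 1 sample, and 28 passed the filter on low counts of the edgeR fit. The 7 that did not pass were Marco, Coro1a, Spi1 and Ms4a7, which had no count anywhere, and Fcgr3, Itgam and Aif1, which had 15 to 54 counts in all samples together. Over the 5 samples at 0 h and 3 h, 0 of 19720624 counts allows a level of up to 0.152 CPM. A gene that passed the filter only through its level at 0 h or 3 h had to differ later on, so that the counts of calls below describe the genes and do not support one another. A gene was called where its adjusted p was under 0.1 and its level differed by more than 2 times.

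**Figure D1:**
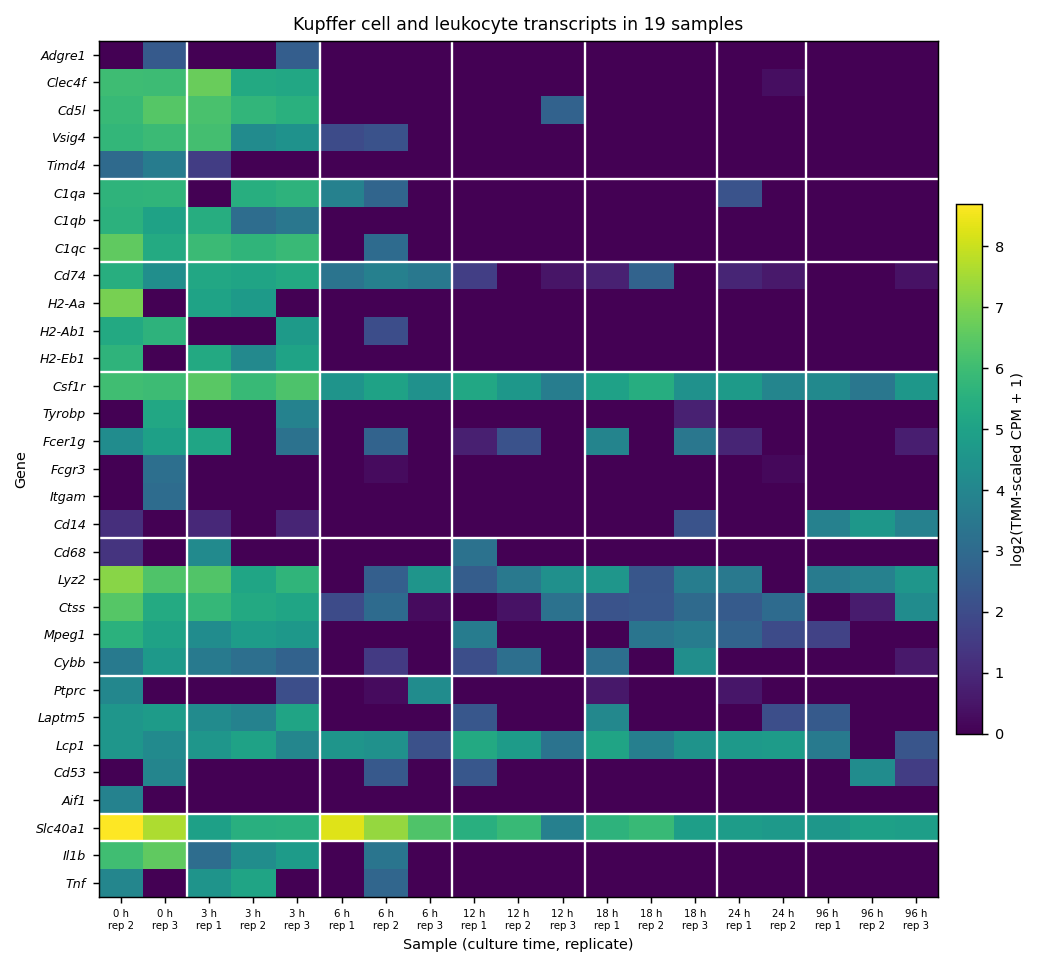
Levels of the 31 genes with counts in each of the 19 samples, as log2(TMM-scaled CPM + 1); columns are samples ordered by culture time and replicate, rows are genes grouped by role, and white lines part the times and the roles. Between 24 and 26 of the 35 genes reached 3 counts in the samples at 0 h, 19 to 23 at 3 h, 6 to 15 at 6 h and 6 to 11 at later times.

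Set against 0 h, 1 of the 28 tested genes was called lower after 3 h (1.39% of all 15138 genes tested), 5 after 6 h (4.35%), 10 after 12 h (9.1%), 9 after 18 h (8.21%), 7 after 24 h (3.86%) and 11 after 96 h (5.03%). None was called higher than at 0 h by edgeR or DESeq2, against 4.19, 6.98, 8.6, 7.64, 5.65 and 5.83% of all genes at these times. Within culture, 4 genes were lower at 6 h than at 3 h (1.99%) and 1 was higher (2.5%), 1 was lower at 12 h than at 6 h (1.42%) and none higher (0.416%), and 10 were lower at 96 h than at 3 h (7.47%) and none higher (6.24%). No gene was called between 12 h and 18 h, 18 h and 24 h or 24 h and 96 h by edgeR, with 2, 1 and 1 genes at an unadjusted p below 0.05. Of all genes, 0.152, 0.0264 and 1.35% were called lower in these 3 steps and 0.0727, 0.0132 and 1.37% higher. In the test over all 7 times, 14 of the 28 changed (27.4% of all genes). As a description of genes chosen with results known, the median log2 ratio of mean CPM, with groups at 0 set to their floor, was -0.72 at 3 h, -4.42 at 6 h and -4.82 at 96 h against 0 h (27, 26 and 27 genes), while the median over all tested genes was -0.07, -0.13 and 0.06.

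These counts moved with single libraries. Without replicate 2 at 0 h, 3 genes were lower after 6 h, 6 after 12 h, 3 after 24 h and 6 after 96 h. The 5 at 6 h also became 3 without replicate 1 or replicate 3 at 6 h, the 10 at 12 h became 6 without replicate 2 at 12 h, and the 11 at 96 h became 7 without replicate 2 at 96 h. At 24 h, where 7 were called, 2 genes were called without replicate 1 at 24 h (1 of them among the 7) and 2 without replicate 2 (2 among the 7). Without replicate 3 at 0 h 4 genes were called at 24 h (3 among the 7), and without any 1 sample at 3 h also 4 (all among the 7). The 4 that were lower at 6 h than at 3 h became 1 without any 1 of the 3 h samples and without replicate 1 or replicate 3 at 6 h. The gene that was lower at 12 h than at 6 h was called together with 1 more without replicate 3 at 6 h.

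Kupffer cell identity genes, where counted, had most of their counts at 0 h and 3 h and were close to absent from 6 h on. Of the 6, 3 (Clec4f, Cd5l and Vsig4) were lower at 96 h than at 0 h (5.03% of all genes tested), and the other 3 had few counts or none. Clec4f, a lectin made in the mouse by Kupffer cells, was at 62.6 and 61.2 CPM at 0 h and at 104, 37.8 and 36.5 CPM at 3 h. It had no count in any sample at 6, 12, 18 or 96 h, and 2 counts (0.257 CPM) in 1 sample at 24 h. The samples at 0 h and 3 h did not overlap with any later sample. Its level was at least 91.4-fold lower at 6 h and at least 95.6-fold lower at 96 h than at 0 h, and at least 87.6-fold lower at 6 h than at 3 h, with adjusted p of 0.00452, 0.00448 and 0.0106. The fitted log2 fold change was -11.22 (SE 1.66) at 96 h. Where 1 group is at 0, such a fitted value and the SE derived from it depend on the prior count, and the value is no bound. A fold given as at least so much divides the mean of the counted group by the mean floor of the group at 0. It allows for counting error only, and not for the clumped counts. All 28 other settings kept the call of Clec4f at 6 h and at 96 h against 0 h and between 3 h and 6 h. Here and below, these settings include no limit on fold, which cannot lose a call, and samples left out at times outside the contrast. Their number is therefore no measure of support.

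Cd5l, a secreted scavenger-receptor protein also known as AIM, was at 57.6 and 83.7 CPM at 0 h and at 71.9, 52.2 and 45.2 CPM at 3 h. It had no count in any of the 3 samples at 6 h, and after that only 1 sample, replicate 3 at 12 h, held counts (5.6 CPM). It was at least 104-fold lower at 6 h and at least 109-fold lower at 96 h than at 0 h, with adjusted p of 0.0277 and 0.028 and a fitted log2 fold change of -11.41 (SE 2.62) at 96 h. Its fall between 3 h and 6 h (adjusted p = 0.054) lost the call without any 1 of the 6 samples of those times, with an adjusted p of up to 0.135. Vsig4, the complement receptor CRIg, was at 53.6 and 60.2 CPM at 0 h and at 67.6, 17.5 and 20.4 CPM at 3 h. It was still counted in 2 of the 3 samples at 6 h, at 2.96 and 3.57 CPM, and in no sample after that. It was at least 107-fold lower at 12 h and at least 87.9-fold lower at 96 h than at 0 h (adjusted p = 0.01 and 0.0159), with a fitted log2 fold change of -11.1 (SE 2.26) at 96 h, and all 28 other settings kept both calls.

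Timd4, the phosphatidylserine receptor of long-lived resident macrophages, was at 7.01 and 11.5 CPM at 0 h, at 1.99 CPM in 1 sample at 3 h and at 0 in the remaining samples. Adgre1, which encodes the macrophage antigen F4/80, had counts in 2 samples only, replicate 3 at 0 h (4.51 CPM) and replicate 3 at 3 h (5 CPM). Marco, a scavenger receptor of Kupffer cells, had none. Neither Timd4 nor Adgre1 was called at any time.

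**Figure D2:**
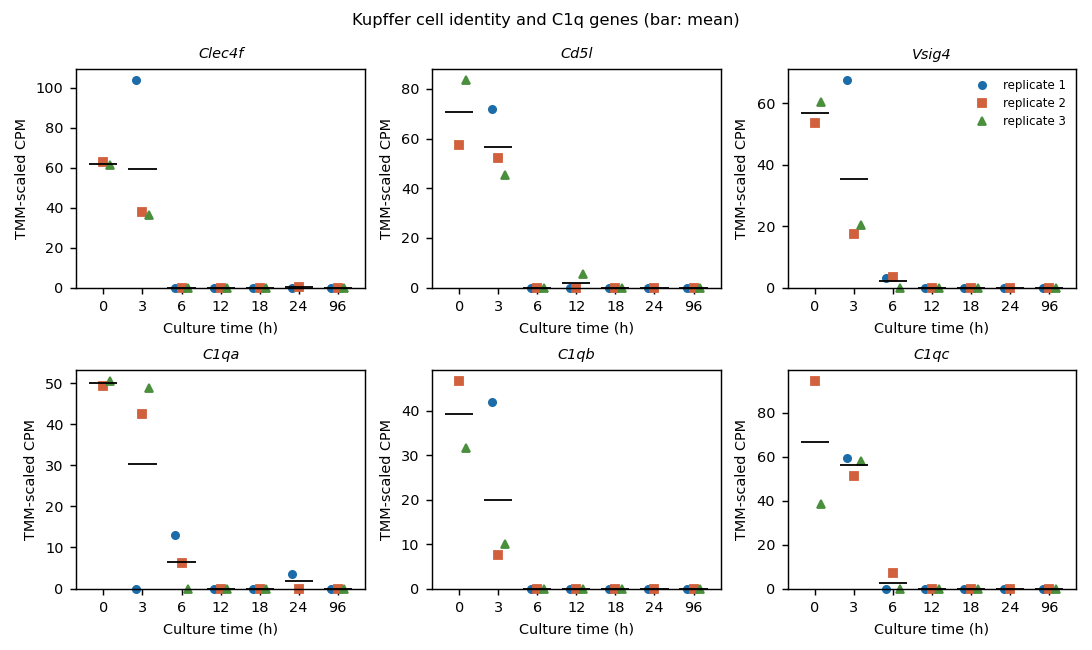
TMM-scaled CPM of 3 Kupffer cell identity genes (top) and the 3 C1q genes (bottom) in each sample against culture time in hours, with times spaced evenly and not to scale; symbols and colors mark the replicate and horizontal bars the mean. All 6 genes lie far above their later levels at 0 h, and at 3 h the samples with counts do so too, while replicate 1 at 3 h held no count of C1qa.

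C1qa, C1qb and C1qc, which encode the chains of the complement component that recognizes antibody-bound and apoptotic targets, lie next to each other on chromosome 4, within 18.7 kb (chr4:136880129-136898803, GRCm38). All 3 were lower at 96 h than at 0 h (5.03% of all genes tested). C1qb followed the course of Clec4f, with 46.8 and 31.6 CPM at 0 h, 42.1, 7.66 and 10 CPM at 3 h and no count in any of the 14 later samples. It was at least 57.9-fold lower at 6 h and at least 60.6-fold lower at 96 h than at 0 h, with adjusted p of 0.0236 and 0.024 and a fitted log2 fold change of -10.57 (SE 2.07) at 96 h. All other settings kept these calls. Between 3 h and 6 h its fall of at least 29.4-fold (adjusted p = 0.0547) lost the call with the isolation date as covariate (adjusted p = 0.1) and with the replicate block (0.144). The call was also lost without any 1 sample of 0, 3 or 6 h (adjusted p of 0.151 without replicate 1 at 3 h).

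C1qc was at 94.6 and 38.6 CPM at 0 h and at 59.3, 51 and 58 CPM at 3 h. At 6 h only replicate 2 held counts (7.15 CPM), and none did later. At 96 h it was at least 103-fold lower than at 0 h (fitted log2 fold change -11.33, SE 2.67, adjusted p = 0.0315), with an adjusted p of 0.102 without replicate 2 at 0 h. C1qa was at 49.3 and 50.6 CPM at 0 h, and at 3 h replicate 1 had no count while the others were at 42.6 and 48.7 CPM. It outlasted the other chains, with 13 and 6.16 CPM in 2 samples at 6 h and 3.64 CPM in 1 sample at 24 h. At 96 h it was at least 77.3-fold lower than at 0 h (fitted log2 fold change -10.92, SE 3.41, adjusted p = 0.0878). This call was lost with the isolation date as covariate (adjusted p = 0.119) and with the replicate block (0.141). It was also lost without either sample at 0 h, any sample at 96 h, replicate 2 or 3 at 3 h, or replicate 1 or 2 at 6 h (adjusted p of 0.196 without replicate 3 at 96 h).

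The genes of antigen presentation by MHC class II were low or uncounted from 12 h on, but only some of them were called lower. Their 4 members differed in how evenly they were counted. Cd74, the invariant chain that guards the peptide groove, was measured in 15 of the 19 samples. It was at 43.1 and 18.6 CPM at 0 h, at 32.8 to 38.3 CPM at 3 h, at 9.18, 12.9 and 10.2 CPM at 6 h and at 0 to 5.78 CPM from 12 h on, with 0, 0 and 0.336 CPM at 96 h. All 3 samples at 6 h lay below those at 0 h and 3 h and above every later sample, though the step from 3 h to 6 h was not called. By 96 h it fell by 7.69 on the log2 scale against 0 h (SE 1.99, adjusted p = 0.0213), a call that all other settings kept. H2-Eb1, a beta chain, was at 49.8 CPM in replicate 2 and at 0 in replicate 3 at 0 h, at 37.8, 16 and 32.4 CPM at 3 h, and at 0 in all later samples. It was called lower at 96 h (fitted log2 fold change -9.91, SE 2.88, adjusted p = 0.0982). The mean at 0 h was 38.5-fold above the floor at 96 h, but it rests on replicate 2 alone and gives no bound. The call was lost with the isolation date as covariate (adjusted p = 0.276), with the replicate block (0.341), in DESeq2 (0.22) and with scaling by library size alone. It was also lost without any sample at 3 h or 96 h and without replicate 2 at 0 h, after which both times are at 0.

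H2-Aa, an alpha chain, was at 120 CPM in replicate 2 and at 0 in replicate 3 at 0 h, at 32.1, 25.9 and 0 CPM at 3 h and at 0 in every later sample. H2-Ab1 was at 38.3 and 48.6 CPM at 0 h, but only 1 sample at 3 h (25.9 CPM) and 1 at 6 h (3.18 CPM) held counts. Both changed over the 7 times (adjusted p = 0.0812 and 0.091) without a call at any single time. The mouse reference is of another strain than Balb/c, MHC genes differ between strains, and H2-Eb1 overlaps the annotated gene Gm20513 on the other strand. The part of either in these counts was not tested.

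Myeloid receptors and adaptors did not follow the Kupffer cell genes as a group. Csf1r was counted in all 19 samples. It was at 64.8 and 61.2 CPM at 0 h and at 87.8, 56.7 and 75.7 CPM at 3 h, and it lay between 10 and 42.2 CPM in the 14 later samples, none of which reached the lowest sample of 0 h or 3 h. Its level was 3.79 times lower at 96 h than at 0 h (log2 fold change -1.92, SE 0.54, adjusted p = 0.0332), with an adjusted p of up to 0.16 without either sample at 0 h or replicate 2 at 96 h. It was 4.42 times lower at 96 h than at 3 h (log2 fold change -2.14, SE 0.5, adjusted p = 0.00953), which all other settings kept. The step from 3 h to 6 h (3.03 times lower, log2 fold change -1.6, SE 0.49, adjusted p = 0.0968) was lost in 19 of 28 other settings. Among them were the isolation date as covariate (adjusted p = 0.122), the replicate block (0.131) and each of the 6 samples at 3 h and 6 h left out. Between 6 h and 96 h no step of Csf1r was called. The annotated gene Hmgxb3 overlaps Csf1r on the other strand and Mir6983 on the same strand, and reads of either, which could not be told apart without the strand setting of the counting, may be among its counts at all times. Their part was not tested.

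Cd14, the coreceptor for bacterial lipopolysaccharide, ran against the rest of the set. It was at 1.25 and 0 CPM at 0 h, at no more than 0.994 CPM at 3 h and at 0 in all samples at 6, 12 and 24 h, with 3.72 CPM in 1 sample at 18 h. At 96 h all 3 samples held it, at 13.2, 23.5 and 13.1 CPM, above every other sample. It changed over the 7 times (adjusted p = 0.0565), but the difference between 96 h and 0 h (log2 fold change 4.6, SE 2.86, adjusted p = 0.389) and that between 96 h and 24 h (adjusted p = 0.307) were not called. Fcer1g, the signaling chain of Fc receptors, was at 17.8 and 29.6 CPM at 0 h and at 33.8, 0 and 8.7 CPM at 3 h, and 7 of the 14 later samples held it at 0.673 to 14.1 CPM. Tyrobp, the adaptor DAP12, had counts in 3 samples, replicate 3 at 0 h (36.6 CPM), replicate 3 at 3 h (13.5 CPM) and replicate 3 at 18 h (0.744 CPM). Fcgr3, an Fc receptor with close paralogs, and Itgam, an integrin of myeloid cells, were at 8.02 and 7.52 CPM in replicate 3 at 0 h and at or near 0 elsewhere.

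**Figure D3:**
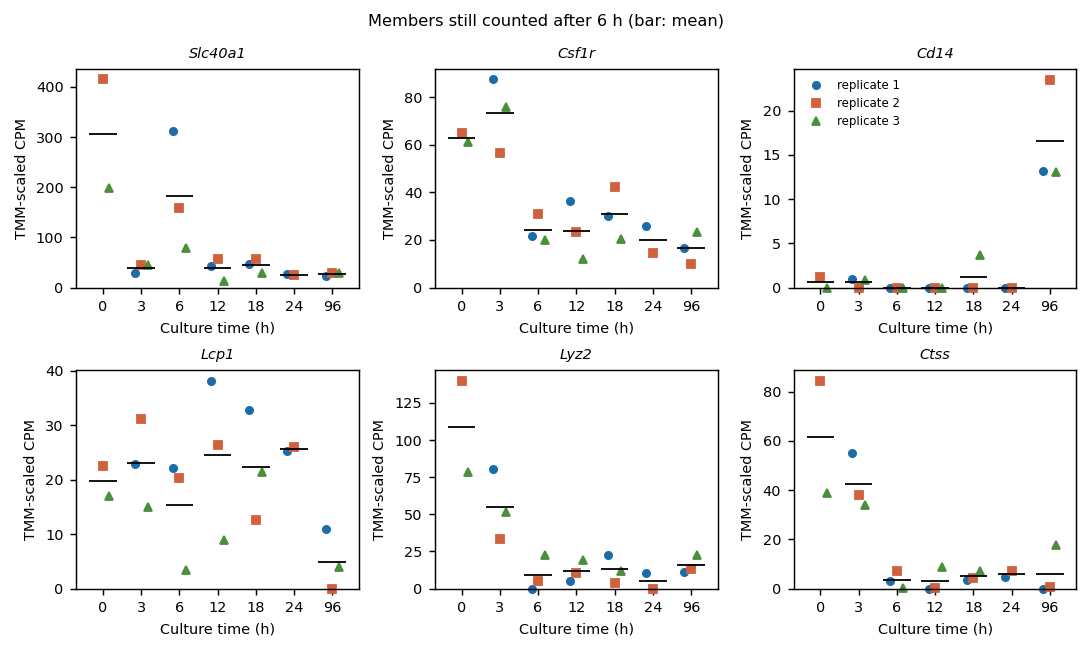
TMM-scaled CPM of 6 genes of the set that were counted after 6 h, in each sample against culture time in hours, with times spaced evenly and not to scale; symbols and colors mark the replicate and horizontal bars the mean. Slc40a1 is low at 3 h and high again at 6 h, Csf1r stays between 10 and 42.2 CPM after 3 h, Cd14 is high at 96 h alone, and Lcp1 overlaps between 0 h and the times from 3 h to 18 h.

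Each gene of the phagosome and lysosome had its highest sample at 0 h or 3 h, and most were still counted in later samples. For Cybb and Cd68, later samples overlapped with those of 0 h and 3 h. Lyz2, the lysozyme of macrophages, was at 140 and 78.2 CPM at 0 h, at 80.2, 33.7 and 51.3 CPM at 3 h and at 0 to 22.9 CPM in later samples, with 11.2, 13.3 and 22.9 CPM at 96 h. Ctss, the protease cathepsin S, was at 84.4 and 38.6 CPM at 0 h, at 55, 38.1 and 33.9 CPM at 3 h and at 0 to 17.7 CPM later. For both genes, every sample from 6 h on lay below every sample at 0 h and 3 h, and yet no contrast was called (adjusted p at 6 h against 0 h of 0.179 and 0.205). Mpeg1, the pore-forming protein perforin-2, was at 46.3 and 31.6 CPM at 0 h and at 17.6, 27 and 24.1 CPM at 3 h. It had no count in the 3 samples at 6 h, when it was at least 57.5-fold lower than at 0 h (fitted log2 fold change -10.56, SE 3.27, adjusted p = 0.0614), and it was counted again at 2.29 to 11.6 CPM in 6 of the 11 samples after 6 h. That call was lost without any 1 sample at 0 h or 6 h, with an adjusted p of up to 0.147. Cybb, the catalytic subunit of the phagocyte NADPH oxidase, was at 10.8 and 25.1 CPM at 0 h, at 5.65 to 10.6 CPM at 3 h and at 0 to 18.8 CPM later. Cd68, a lysosomal glycoprotein, had counts in 3 samples, of which 1 was at 12 h (8.79 CPM). Reads of Lyz2 may be shared with its near-identical neighbor Lyz1.

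Among the genes of leukocytes in general, Lcp1, an actin-bundling protein known as L-plastin, was measured in 18 of the 19 samples and was not called in any contrast. It was at 22.5 and 17 CPM at 0 h, at 15 to 31.1 CPM at 3 h, at 3.47 to 38.2 CPM between 6 h and 24 h and at 10.9, 0 and 3.87 CPM at 96 h. Both samples at 24 h (25.3 and 26.1 CPM) lay above and all 3 at 96 h below the samples at 0 h, while the other times overlapped with 0 h. The difference between 96 h and 24 h had a log2 fold change of -2.39 (SE 1.23, adjusted p = 0.495). The annotated genes Gm15628 and Gm15629 overlap Lcp1 on the other strand, and the strand setting of the counting is not given in the sources used here. Laptm5, a lysosomal membrane protein of blood cells, was at 22.8 and 26.6 CPM at 0 h, at 17.2, 13.4 and 33 CPM at 3 h and at 0 in 10 of the 14 later samples, the other values being 3.21 to 15.6 CPM. Ptprc reached 15.3 CPM in 1 sample at 0 h, 17.7 CPM in replicate 3 at 6 h and no more than 3.26 CPM elsewhere. Cd53, a tetraspanin, was at 14.5 CPM in 1 sample at 0 h and at 17.7 and 2.02 CPM in 2 samples at 96 h. Aif1, which encodes the macrophage protein Iba1, was at 13.5 CPM in replicate 2 at 0 h and at 0 in all other samples. Coro1a, Spi1 and Ms4a7 had no count.

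Slc40a1, which encodes the iron exporter ferroportin that Kupffer cells use to return iron from red blood cells, had a course of its own. It was at 415 and 198 CPM at 0 h, at 29.8, 44.3 and 45.2 CPM at 3 h, at 312, 158 and 78.6 CPM at 6 h and at 12.9 to 57.8 CPM in the 11 later samples, and it was the gene of the set with the most counts (6832). The samples at 3 h lay below all samples at 0 h and 6 h, while those at 0 h and 6 h overlapped. Its level was 7.7 times lower at 3 h than at 0 h (log2 fold change -2.94, SE 0.58, adjusted p = 0.0063) and 11.3 times lower at 96 h than at 0 h (log2 fold change -3.5, SE 0.59, adjusted p = 0.000933). All 28 other settings kept both calls. It rose from 3 h to 6 h by 2.2 on the log2 scale (SE 0.54, adjusted p = 0.0298), which was lost without replicate 1 at 3 h or replicate 1 at 6 h (adjusted p of up to 0.152). It fell by 2.26 on the log2 scale from 6 h to 12 h (SE 0.54, adjusted p = 0.0524), which was lost without replicate 1 at 6 h and without replicate 1 or 3 at 12 h (adjusted p of up to 0.209).

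The cytokine genes Il1b and Tnf, which macrophages make on activation, were counted at 0 h and 3 h and in 1 sample of 6 h. Il1b was at 65.1 and 94.3 CPM at 0 h, at 7.62, 18.2 and 26.7 CPM at 3 h, at 9.33 CPM in replicate 2 at 6 h and at 0 in the remaining samples. It was at least 149-fold lower at 12 h and at least 123-fold lower at 96 h than at 0 h (adjusted p = 0.0284 and 0.0431), with a fitted log2 fold change of -11.59 (SE 2.93) at 96 h. The call at 96 h was lost without either sample at 0 h and without replicate 2 or 3 at 96 h (adjusted p of up to 0.111). All samples at 3 h lay below those at 0 h, without a call. The antisense gene Il1bos overlaps Il1b. Tnf was at 14.8 CPM in replicate 2 and at 0 in replicate 3 at 0 h, at 21.9, 33 and 0 CPM at 3 h and at 6.35 CPM in replicate 2 at 6 h, and was not called.

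**Figure D4:**
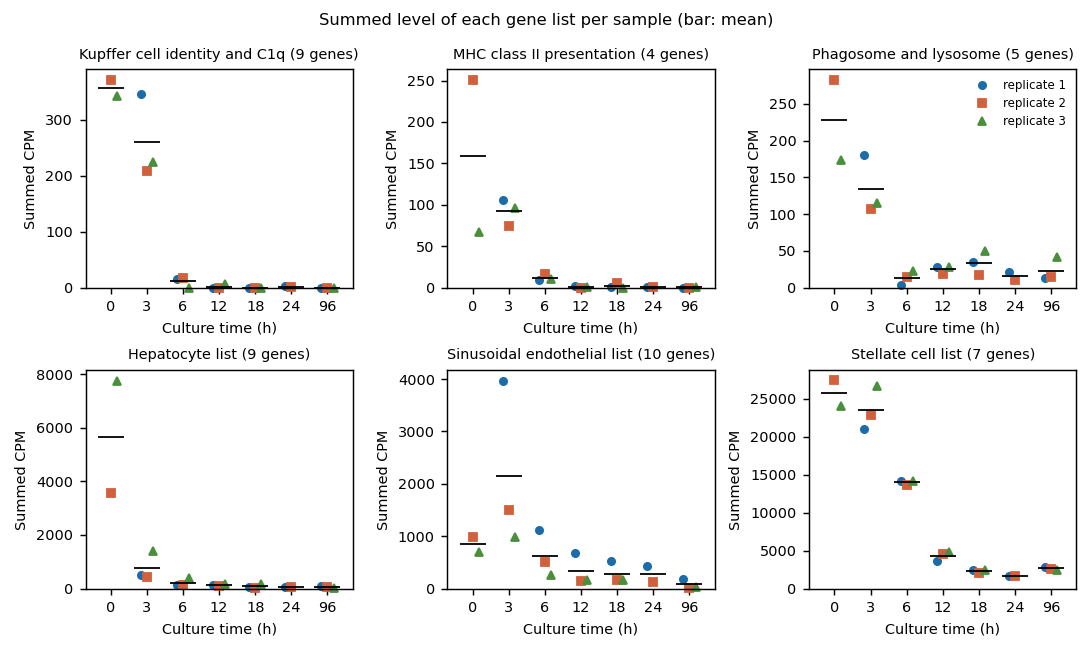
Summed TMM-scaled CPM of 3 groups of Kupffer cell and leukocyte genes (top) and of the hepatocyte, sinusoidal endothelial and stellate cell lists (bottom) in each sample against culture time in hours, with times spaced evenly and not to scale; symbols and colors mark the replicate and horizontal bars the mean. The sum of Kupffer cell identity and C1q genes is between 209 and 372 CPM at 0 h and 3 h and at most 16.9 CPM afterwards.

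Summed over the 9 Kupffer cell identity and C1q genes, the level was 372 and 342 CPM at 0 h, 347, 209 and 224 CPM at 3 h, 16, 16.9 and 0 CPM at 6 h and 0 to 5.6 CPM later, with 0 in all samples at 18 h and 96 h. Replicates 1 and 2 at 6 h held 54 and 85 counts of these genes, and replicate 3, the deepest of the 3, held none. The mean was 72.8% of that at 0 h after 3 h (60.6% without replicate 1 at 3 h) and 3.07% after 6 h (4.61% without replicate 3 at 6 h). MHC class II genes stood at 57.9% and 7.43%, phagosome and lysosome genes at 58.8% and 5.8%, myeloid receptors and adaptors at 81.7% and 23.1%, leukocyte genes in general at 68.5% and 34.4% and cytokines at 41.1% and 6%. At 96 h these groups stood at 0%, 0.0704%, 9.99%, 29.5%, 19.7% and 0%, in the same order. Some of these sums were mostly single genes. At 6 h Csf1r made up 24.2 of the mean 26.2 CPM of myeloid receptors and adaptors, and Lcp1 15.3 of the 22.7 CPM of leukocyte genes in general. At 96 h Csf1r and Cd14, at a mean of 16.6 CPM each, made up nearly all of the myeloid 33.4 CPM, and Cd14 was at 0.626 CPM at 0 h. The MHC class II sum was 251 CPM in replicate 2 and 67.2 CPM in replicate 3 at 0 h, and H2-Aa and H2-Eb1 had no count in the latter. Without replicate 2 at 0 h it stood at 137% after 3 h, 17.6% after 6 h and 0.167% after 96 h, and without replicate 3 at 36.7, 4.7 and 0.0446%, so that its direction between 0 h and 3 h rests on 1 sample. Myeloid receptors and adaptors stood at 110% after 3 h without replicate 3 at 0 h. Phagosome and lysosome genes stood at 3.74% after 6 h without replicate 3 at 6 h and at 5.98% after 96 h without replicate 3 at 96 h. Cytokines stood at 0% after 6 h without replicate 2 at 6 h and at 9.01% without either of the others. The sum over all 35 genes was at 20.7% of 0 h after 6 h, and the sum without Slc40a1 at 8.92%.

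Markers of other liver cells in the same samples had other courses. The 9 hepatocyte genes summed to 3556.2 and 7753.5 CPM at 0 h and were at 13.8% of that mean after 3 h and 3.73% after 6 h, with Alb at 1810 and 4441.1 CPM at 0 h and 212 to 609 CPM at 3 h. Without replicate 3 at 0 h these shares were 22 and 5.92%, and without replicate 3 at 3 h or 6 h they were 8.48 and 2.09%. The 10 sinusoidal endothelial genes were at 256% after 3 h, where replicate 1 held 3971.5 CPM and the others 1498.4 and 987 CPM, at 74.9% after 6 h and at 9.46% after 96 h. Without replicate 1 of the same time the endothelial sum was at 148, 45.4 and 3.24%. The 7 stellate cell genes were at 91.4% after 3 h, 54.4% after 6 h and 10.3% after 96 h. At 96 h, 11 of the 28 tested Kupffer cell and leukocyte genes were called lower than at 0 h, against 5.03% of all genes tested. In the other lists, whose genes were all tested, these were 7 of the 9 hepatocyte genes, 2 of the 10 endothelial genes and 5 of the 7 stellate cell genes. The differences between the lists were not tested. Set against the stellate cell list of the same sample, Kupffer cell identity and C1q genes were at 1.35 and 1.42% at 0 h, at 0.838 to 1.65% at 3 h and at 0 to 0.124% at 6 h.

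Macrophage genes outside the set gave a mixed picture. Of 17 further macrophage genes, 10 were tested, and Cd163, Fcna and Irf8 were among those lower at 96 h than at 0 h. Their sum was at 180% of the 0 h mean after 3 h and 80.7% after 6 h, and most of it was Fcna, the secreted lectin ficolin A. Fcna was at 1530.8 and 1021.4 CPM at 0 h, at 1859.6 to 2613.7 CPM at 3 h and at 835 to 1502 CPM at 6 h, when Clec4f had no count. Fcnaos overlaps Fcna on the other strand. Fcna was 4.57 times lower at 12 h (log2 fold change -2.19, SE 0.27, adjusted p = 3.69e-05) and 22 times lower at 96 h than at 0 h (log2 fold change -4.46, SE 0.29, adjusted p = 8.28e-08). Irf8, a transcription factor of the myeloid lineage, was at 160 and 84.7 CPM at 0 h, at 238 to 516 CPM at 3 h and at 20.4 to 79.4 CPM at 6 h, and it was lower at 6 h than at 3 h (log2 fold change -2.84, SE 0.48, adjusted p = 0.0034).

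Among lists of other leukocytes, those of monocytes, of T and NK cells and of B cells had 1 tested gene each, and those of neutrophils and dendritic cells had none. The 6 neutrophil genes had counts in 1 sample only, 0.35 CPM at 18 h. Among 6 monocyte genes, Plac8 had the highest level, at 861 and 666 CPM at 0 h, 29 to 77.3 CPM at 18 h and 317, 567 and 514 CPM at 96 h, where it was higher than at 24 h (log2 fold change 3.08, SE 0.52, adjusted p = 0.00373). Ly6c2 was at 0 in all samples and Ccr2 reached no more than 3.51 CPM. Of 10 T and NK cell genes, Ccl5 was at 0 at 0 h, at 19.5 to 28.4 CPM at 6 h and at 0 from 18 h on, and it was called higher at 6 h than at 0 h (adjusted p = 0.0801). Cd3e had counts in 1 sample (8.28 CPM). Ighm, the heavy chain of IgM in B cells, was at 30.8 and 23.1 CPM at 0 h and at no more than 4.75 CPM later, and the 6 dendritic cell genes summed to at most 6.2 CPM in any sample. The 7 genes of the MHC class II machinery summed to 0 to 13.3 CPM, and Ciita, the activator of class II genes, had counts in 1 sample alone (9.67 CPM, replicate 3 at 6 h).

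Of the ligands of the Csf1r receptor, Csf1 rose in culture and Il34 was not called against 0 h. Csf1 was at 112 and 271 CPM at 0 h, at 974, 1439 and 1660.7 CPM at 3 h, at 3122.6 to 3973.7 CPM at 12 h and at 1261.2 to 1529.1 CPM at 96 h. It was 7.09 times higher at 3 h (log2 fold change 2.83, SE 0.36, adjusted p = 0.000157) and 18.8 times higher at 12 h than at 0 h (log2 fold change 4.24, SE 0.39, adjusted p = 1.73e-06). Il34 was at 96.6 and 105 CPM at 0 h and at 152 to 208 CPM at 3 h. It was at 88.3, 54.8 and 0 CPM at 6 h and at 0 to 9.64 CPM between 12 h and 24 h. At 96 h replicate 3 was at 30.4 CPM and the others had no count. Of 9 inducible inflammatory genes, 7 were tested. The chemokine gene Cxcl2 was at 82.9 and 97.3 CPM at 0 h and at 2334.1 to 3286.8 CPM at 3 h, when Il1b was at 7.62 to 26.7 CPM, and it was 32.8 times higher at 3 h than at 0 h (log2 fold change 5.04, SE 0.69, adjusted p = 0.000281). Il1a, which encodes interleukin-1 alpha, went from 52.3 and 41.6 CPM at 0 h and 31.7 to 73.2 CPM at 3 h to 14.2 CPM in 1 sample at 6 h and 0 in all others, and was lower at 96 h than at 0 h (adjusted p = 0.0588). Ptgs2 was at 0 in both samples at 0 h and at 93.4, 237 and 166 CPM at 96 h, where it was called higher (adjusted p = 0.0117).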

How the data were processed

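RNASeq counts of 19 samples were used. The values that the authors deposited are counts, unnormalized whole numbers for each gene in each library. Per the labels, libraries were made with a 3′ kit, and the submitters' processing notes name STAR, StringTie and the build mm10. The counting tool is not given in the sources used here. Groups were taken from the sample titles. Symbols and positions came from GENCODE M21 (GRCm38), promoter windows from RefSeq (GRCm38.p6).

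Computed here with R 4.3.3 and edgeR 4.0.16: filterByExpr at its defaults (15138 genes left), TMM scaling, and glmQLFit and glmQLFTest in 1 fit of all 19 samples with culture time alone (residual degrees of freedom 12, biological coefficient of variation 1.06). Adjusted p-values are Benjamini-Hochberg values over all genes tested per contrast. Each SE is the size of the log2 fold change divided by the square root of the F value of its test. DESeq2 1.42.0, other scaling, no filter, thinning, other limits, a replicate block, isolation date, fits of 2 groups and samples left out were alternatives, and the fit was tested on simulated data. Sums over lists carry no test. The study's own fit is described as DESeq2.

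The 35 genes and the lists were chosen with earlier results of these data known. Values are given per sample where a gene's mean reached 10 CPM at some time and for all Kupffer cell identity and C1q genes, and test values for genes called against 0 h or in a step of culture. From other lists at most 3 genes by mean CPM are described, and Cd163 was named after its values were seen. The values of 1 gene of these lists are not reported here. The main fit did not pair samples by replicate number, although same-numbered samples carry the same isolation tag at every time. With the replicate block, an alternative, some calls were lost, among them that of C1qa at 96 h against 0 h (adjusted p = 0.141). The study describes 3 independent repeats per time, each made of 2 technical repeats. No source used here says whether the independent repeats came from separate animals, so that p-values measure the spread between these samples, part of which may be technical.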

Additional observations from a re-analysis of the deposited data

How the results depend on the processing

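Counts of called genes were compared with the reported ones in 224 pairs of a contrast and an alternative (other than leaving out a sample), and 205 stayed within 1.5 times. Pairs in which neither fit called a gene are among the 205, so that this share is no measure of how stable the calls were. Of genes lower at 6 h than at 0 h, reported as 5, 3 were called at an adjusted p below 0.05, 10 by DESeq2 and 8 with counts thinned to the smallest library. At 12 h 6 were called at 0.05. At 24 h 3 were called at 0.05, 12 by DESeq2, 3 with the replicate block and 13 in a fit of the 2 groups. Lower at 6 h than at 3 h were 1 at 0.05, 8 by DESeq2, 2 with the replicate block, 2 with isolation date as covariate and 7 in the fit of 2 groups. Lower at 12 h than at 6 h were 0 at 0.05, 3 by DESeq2 and 0 in the fit of 2 groups. Genes called higher became 1 at 12 h against 6 h by DESeq2, and 1 each at 96 h against 24 h and against 3 h in fits of 2 groups. The causes were not tested. The share of all genes called is not given here for the alternatives or for fits with a sample left out. Whether these shifts are particular to this set or general to all genes therefore cannot be read from these counts. With the replicate block, no other count moved by over 1.5 times. Same-numbered samples share a number and an isolation tag. Their residuals correlated at 0.014 on average (51 pairs, -0.072 to 0.082), those of different numbers at -0.007 (103 pairs), and 13 of 19 samples correlated best with their own number.

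Leaving out 1 sample gave 3 to 5 genes lower at 6 h, 6 to 11 at 12 h, 7 to 10 at 18 h, 2 to 8 at 24 h and 6 to 11 at 96 h against 0 h, 1 to 5 lower and 0 to 1 higher at 6 h against 3 h, 0 to 2 lower at 12 h against 6 h, 7 to 10 lower at 96 h against 3 h and 11 to 14 changed over the 7 times. With a lone sample left at 0 h or 24 h, it is assumed to vary like the others. Relative to the stellate cell list, the sum of the 35 genes was at 38.4% of 0 h after 6 h and 72.5% after 96 h, in place of 20.7% and 7.32%. The Kupffer cell identity and C1q sum was at 5.67% after 6 h. At 96 h myeloid receptors and adaptors were at 283%, phagosome and lysosome genes at 101% and leukocyte genes in general at 190%, in place of 29.5, 9.99 and 19.7%. The stellate cell list itself fell to 54.4% of 0 h after 6 h and 10.3% after 96 h, so that these shares do not mean that a sum rose. Depth limits all genes under about 1 CPM, and the clumped counts limit single values well above that.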

Other observations

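Genes outside the 35 were ranked by how closely their TMM-scaled log2 CPM followed the mean of the 8 Kupffer cell identity and C1q genes with counts, over 19 samples (Pearson's r, a description across samples that share libraries and fall into 2 clusters, 0 h and 3 h against later times). The 10 most alike were Sult1a1 (r = 0.992), Olfml1 (0.985), Cd163 (0.981), Epor (0.978), Cyp2d26 (0.976), Phf11a (0.967), Nr1h5 (0.967), Prkcq (0.965), Tmem56 (0.964) and Abca8b (0.964). Cd163, a hemoglobin scavenger receptor of macrophages, was at a mean of 24.7 CPM at 0 h, 8.68 CPM at 3 h and 0 from 6 h on. Sult1a1, a sulfotransferase, was at 62.9 CPM at 0 h, 15.6 CPM at 3 h and 0.265 CPM at 6 h, and Cyp2d26, a cytochrome P450, at 51.9, 11 and 0 CPM. Epor, the erythropoietin receptor, was at 93.6 CPM at 0 h and 0 from 6 h on. Tmem56 had by far the highest level of the 10, with 1781.7 CPM at 0 h, 758 CPM at 3 h and 157 CPM at 6 h. Of the 10, Cd163 alone is on a macrophage list used here.

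Counts of Kupffer cell identity and C1q genes after 6 h came from 3 samples. Replicate 3 at 12 h held 42 counts, all of Cd5l, replicate 1 at 24 h held 17 counts, all of C1qa, and replicate 2 at 24 h held 2 counts of Clec4f.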
